A study of Mus musculus with 14 samples.

Results

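The open chromatin of Nrl-/- photoreceptors was compared with that of rods in 4 ATAC-seq libraries of a series of 14. The count table held 53204 elements of 200 bp, which the authors centred on peak summits of their photoreceptor libraries. All 49364 elements that passed a filter on low counts were tested, and the other 3840 were not. An element that passed through its level in a single group had to be high there, so the counts below are read against all elements tested and not against the genome.

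Both groups were C57BL/6 mice aged 8 weeks, and retinal cells positive for eGFP were isolated in a single round of fluorescence-activated cell sorting. Nrl-/- photoreceptors came from mice that carried the Nrl-eGFP reporter on a background null for Nrl (2 libraries), and rods came from mice with the Nrl-eGFP reporter alone (2 libraries). The same reporter thus drove the sort in both groups, from the Nrl promoter. It selects cells in which that promoter is or was active, and it does not separate the S-cone-like cells of the mutant from other cells of that lineage. RNA-seq of the same sorted types, with 3 libraries each, gave the RNA of the genes nearest to the elements. The authors call their libraries biological replicates, but the labels do not say whether each came from a separate animal. The p-values thus measure the spread between these libraries, which may not be that between animals. With 2 libraries against 2, no exact permutation test of a single element can go below a two-sided p of 0.333, and all tests below come from a model fitted across all elements.

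Rods and cones of the mouse retina arise from related precursors, and the basic leucine zipper factor NRL directs the rod fate together with the nuclear receptor NR2E3 and the homeodomain factor CRX, which both cell types use. Without NRL, cells that would have become rods develop as photoreceptors that resemble short-wavelength cones. In ATAC-seq, a transposase inserts adapters where DNA is accessible, so that the number of reads over an element measures how open it is. Mature mouse rods are also known for an unusual nucleus, in which heterochromatin is packed in the centre and lamin A is lacking.

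The sequences of 11 elements that carry the main differences are shown, written in GRCm38 from the RefSeq genome sequence, 5′ to 3′ on the strand of the nearest gene. Capitals mark CTAATCC or CTAAGCC (a homeodomain site of the CRX kind and its variant), AGGTCA (the core of nuclear receptor sites), TGCTGAC (the core of MAF sites), TGANTCA (a basic leucine zipper site) and TAATTA (another homeodomain site), found on either strand. The first 5 were called more open in rods, though at the Nrl intron a closed element and missing DNA cannot be told apart. They are the Gnat1 promoter (chr9:107679619-107679818), an intron of Gnb1 (chr4:155522426-155522625), an intron of Nrl (chr14:55521184-55521383), an intron of Esrrb (chr12:86507801-86508000) and an intergenic element downstream of the Prph2 start (chr17:46928060-46928259). The Gnat1 and Nrl sequences are from the minus strand and the other 3 from the plus strand.
Gnat1 promoter: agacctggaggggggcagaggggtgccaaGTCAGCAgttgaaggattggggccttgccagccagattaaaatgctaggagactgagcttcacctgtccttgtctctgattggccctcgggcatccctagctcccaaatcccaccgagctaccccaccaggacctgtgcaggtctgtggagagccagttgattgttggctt
Gnb1 intron: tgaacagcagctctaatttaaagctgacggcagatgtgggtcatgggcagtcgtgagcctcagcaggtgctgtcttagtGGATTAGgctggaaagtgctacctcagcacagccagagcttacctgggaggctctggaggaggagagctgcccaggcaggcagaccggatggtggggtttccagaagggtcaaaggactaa
Nrl intron: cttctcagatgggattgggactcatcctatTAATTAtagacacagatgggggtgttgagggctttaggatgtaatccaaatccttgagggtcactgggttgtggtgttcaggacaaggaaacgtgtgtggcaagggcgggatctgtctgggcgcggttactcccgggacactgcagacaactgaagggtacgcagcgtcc
Esrrb intron: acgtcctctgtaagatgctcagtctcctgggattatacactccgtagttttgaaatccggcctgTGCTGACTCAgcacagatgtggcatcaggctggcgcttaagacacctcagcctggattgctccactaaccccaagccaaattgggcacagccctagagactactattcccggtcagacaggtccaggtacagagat
Prph2 downstream: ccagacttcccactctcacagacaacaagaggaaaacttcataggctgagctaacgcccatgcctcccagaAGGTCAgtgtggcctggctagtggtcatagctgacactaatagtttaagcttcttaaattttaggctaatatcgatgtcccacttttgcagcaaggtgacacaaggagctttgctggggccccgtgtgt
Each of these 5 held at least 1 match, and in the Esrrb intron the MAF core and the basic leucine zipper site overlapped. Of all 35499 distal elements tested, 9.60% held CTAATCC, 6.59% CTAAGCC, 17.0% AGGTCA, 4.47% TGCTGAC, 6.67% TGANTCA and 6.06% TAATTA. Of the 13865 promoter elements, 2.29%, 2.93%, 7.26%, 2.60%, 2.52% and 1.07% held them in the same order.

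The next 6 were more open in Nrl-/- photoreceptors. They are an intergenic element far from its nearest start at Gm31447 (chr12:68602807-68603006), an element upstream of Plaat1 (chr16:29194089-29194288), the Gnat2 promoter (chr3:108092636-108092835), an intron of Slc24a2 (chr4:87221645-87221844), an element upstream of Rxrg (chr1:167584018-167584217) and an element upstream of Lmna (chr3:88509982-88510181). The Slc24a2 and Lmna sequences are from the minus strand and the other 4 from the plus strand.
Gm31447 intergenic: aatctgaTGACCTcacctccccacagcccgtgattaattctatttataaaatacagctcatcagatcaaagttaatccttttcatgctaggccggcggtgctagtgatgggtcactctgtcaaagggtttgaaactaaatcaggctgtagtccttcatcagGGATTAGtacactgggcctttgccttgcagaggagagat
Plaat1 upstream: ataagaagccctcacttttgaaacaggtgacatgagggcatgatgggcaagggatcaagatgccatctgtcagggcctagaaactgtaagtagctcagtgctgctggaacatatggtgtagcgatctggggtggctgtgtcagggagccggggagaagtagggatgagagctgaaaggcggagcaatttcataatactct
Gnat2 promoter: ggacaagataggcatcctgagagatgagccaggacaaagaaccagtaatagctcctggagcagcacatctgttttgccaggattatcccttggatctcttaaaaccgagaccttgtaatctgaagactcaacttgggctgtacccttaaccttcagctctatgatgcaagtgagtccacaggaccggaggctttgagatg
Slc24a2 intron: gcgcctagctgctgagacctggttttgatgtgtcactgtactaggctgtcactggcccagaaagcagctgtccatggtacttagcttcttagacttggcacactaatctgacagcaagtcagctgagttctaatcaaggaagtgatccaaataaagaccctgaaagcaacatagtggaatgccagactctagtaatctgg
Rxrg upstream: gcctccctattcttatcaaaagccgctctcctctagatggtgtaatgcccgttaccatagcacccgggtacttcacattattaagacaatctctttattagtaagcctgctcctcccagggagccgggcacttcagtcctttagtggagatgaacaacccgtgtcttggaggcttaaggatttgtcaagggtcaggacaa
Lmna upstream: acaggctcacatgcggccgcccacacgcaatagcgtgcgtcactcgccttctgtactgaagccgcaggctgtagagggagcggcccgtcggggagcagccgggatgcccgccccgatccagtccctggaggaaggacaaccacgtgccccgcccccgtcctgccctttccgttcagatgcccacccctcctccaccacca
In this set only the Gm31447 element held any of the marked letters, with 1 homeodomain site and 1 nuclear receptor core. A missing match says only that these letters are not in the 200 bp.

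Counts in elements summed to 2402513 and 4318961 in Nrl-/- photoreceptors, against 5170146 and 5770075 in rods. Values are given below as CPM, which are counts in elements scaled to a common library size after TMM, and a fold change is Nrl-/- photoreceptors over rods on the log2 scale, with its standard error (SE). Replicates correlated across elements with r = 0.923 in Nrl-/- photoreceptors and r = 0.967 in rods, and elements with no count numbered 907 and 362 in the Nrl-/- libraries, against 3887 and 3107 in the rod libraries. Elements were called where edgeR's test against a 2-fold change gave an adjusted p under 0.1. By this rule 10377 elements, 21.0% of those tested, were more open in Nrl-/- photoreceptors, and 3151, or 6.38%, were more open in rods. The median log2 fold change over all tested elements was 0.07, with the middle 50% between -0.55 and 1.3. Counts in elements made up 6.74% and 10.81% of the processed reads of the Nrl-/- libraries, against 14.62% and 13.02% of those of rods, and the part of this gap in the differences was not tested. With processed reads in place of TMM as library sizes 5972 were more open in Nrl-/- photoreceptors, with DESeq2 5982 and without replicate 2 of Nrl-/- photoreceptors 6631, and DESeq2 called 1307 in rods. In sorted cells a larger share of cells with an open element and a more open element in each cell cannot be told apart.

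Elements of the rod phototransduction cascade were more open in rods. Over the 21 genes of that list, 96 elements were tested, of which 43 were more open in rods and 1 in Nrl-/- photoreceptors, and their median log2 fold change was -1.26, against 6.38%, 21.0% and 0.07 over all elements. In the list, 18 genes had at least 1 element more open in rods. All 6 elements nearest to Gnb1, which encodes the β subunit of rod transducin, were called in that direction, as were all 3 of Pde6b, a catalytic subunit of the rod phosphodiesterase, and all 3 of Guca1b, an activator of guanylate cyclase. DESeq2 with the same threshold on the fold change called 25 elements of the list in rods.

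Gnat1, the α subunit of rod transducin, had almost no signal left at its promoter. The element 84 bp upstream of its start had 0.812 and 0.442 CPM in Nrl-/- photoreceptors, against 122 and 108 CPM in rods, a log2 fold change of -7.57 (SE 0.29, edgeR adjusted p = 1.2e-18). The groups did not overlap, and the Nrl-/- libraries held 4 counts in all. A further element of Gnat1 within its intron, 3481 bp from the start, had 8.94 and 11.3 CPM in Nrl-/- photoreceptors, against 6.05 and 11.5 CPM in rods, so that the groups overlapped there.

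The Pde6b promoter had 0.406 and 1.33 CPM in Nrl-/- photoreceptors, against 65.5 and 66.4 CPM in rods, with a log2 fold change of -6.01 (SE 0.31). The Gnb1 intron element shown above had 2.44 and 1.33 CPM in Nrl-/- photoreceptors, against 88.7 and 99.9 CPM in rods, while the Gnb1 promoter itself had 2.44 and 4.86 CPM against 23.6 and 30.2 CPM. The intron element thus was the more open of these 2 in rods and differed more. The promoter of Cnga1, a subunit of the rod cyclic nucleotide-gated channel, had 3.25 and 3.53 CPM in Nrl-/- photoreceptors, against 37.5 and 32.2 CPM in rods, a log2 fold change of -3.33 (SE 0.29).

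Some genes of the rod phototransduction list had no element that passed the test. The single element of Sag, the rod arrestin, had 75.5 and 66.0 CPM in Nrl-/- photoreceptors, against 101 and 110.3 CPM in rods, and its log2 fold change of -0.59 (SE 0.12) did not pass the test. No element of Gngt1, the γ subunit of rod transducin, or of Rgs9, which speeds the shut-off of transducin, was called, with 2 and 7 tested. The RNA of these genes did not pass the test either, so the list also holds genes that both groups express. Sag averaged 10941 CPM in Nrl-/- photoreceptors against 18397 CPM in rods, Gngt1 2012 against 4085 CPM and Rgs9 554 against 963 CPM. The Pde6a promoter had 40.2 and 36.9 CPM in Nrl-/- photoreceptors, against 76.6 and 88.2 CPM in rods, and was not called (log2 fold change -1.11, SE 0.14), while 3 of its 4 elements were.

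**Figure D1:**
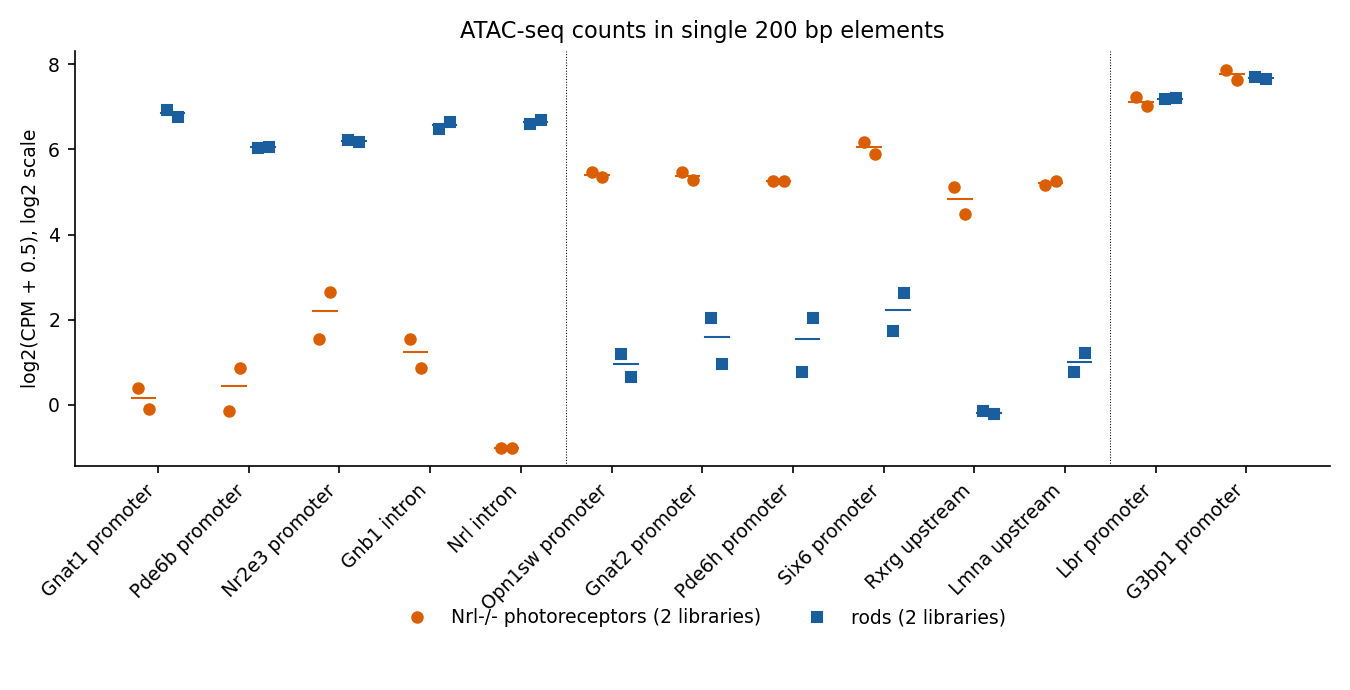
Openness of 13 elements in each ATAC-seq library as log2(CPM + 0.5), with Nrl-/- photoreceptors (circles) left of rods (squares) and a bar at the mean of each group's 2 libraries. The 5 elements on the left were called more open in rods and the next 6 more open in Nrl-/- photoreceptors. At the Nrl intron a closed element and missing DNA cannot be told apart. The Lbr and G3bp1 promoters on the right had log2 fold changes of -0.08 and 0.07 and were not called.

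The genes of cone phototransduction went the other way. Of 57 elements tested at 11 genes, 40 were more open in Nrl-/- photoreceptors and 1 in rods, against 21.0% and 6.38% over all elements. The median log2 fold change was 2.72. Each of the 11 genes had at least 1 element more open in Nrl-/- photoreceptors. All 10 tested elements of Slc24a2, the sodium, calcium and potassium exchanger of cones, all 9 of Cnga3 and all 3 of Cngb3, which encode the cone channel, and both of Gngt2, a transducin γ subunit of cones, were called. With processed reads as library sizes 23 elements of the list were called in that direction.

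The Gnat2 promoter element, which carries the α subunit of cone transducin, had 43.5 and 38.6 CPM in Nrl-/- photoreceptors, against 3.63 and 1.46 CPM in rods, a log2 fold change of 4.02 (SE 0.30, edgeR adjusted p = 9.1e-11). A second element 17 bp upstream of the same start had 12.2 and 17.9 CPM in Nrl-/- photoreceptors, against 8.06 and 8.73 CPM in rods and was not called, and neither was one 1226 bp into the gene, with 52.4 and 55.4 CPM against 36.1 and 36.2 CPM. Parts of the Gnat2 locus thus were open in rods as well. The promoter of Pde6h, the inhibitory subunit of the cone phosphodiesterase, had 37.8 and 38.0 CPM in Nrl-/- photoreceptors, against 1.21 and 3.64 CPM in rods, a log2 fold change of 3.92 (SE 0.31).

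At Slc24a2 the promoter had 21.1 and 29.4 CPM in Nrl-/- photoreceptors and no count in either rod library. With a floor of 3 counts per library for rods, the element was at least 43.9-fold higher in Nrl-/- photoreceptors. The intron element shown above, 6219 bp from the start, had 37.0 and 46.6 CPM in Nrl-/- photoreceptors, against 0 and 0.728 CPM in rods. In Slc24a2 the tested elements reached as far as 138479 bp upstream and 118509 bp into the gene, and all were called.

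Arr3, the cone arrestin, differed less. Its promoter had 51.6 and 45.1 CPM in Nrl-/- photoreceptors, against 18.5 and 17.5 CPM in rods, so that the groups did not overlap but rods kept a clear signal. The log2 fold change was 1.41 (SE 0.18, edgeR adjusted p = 0.018), and the call was lost with DESeq2, with processed reads as library sizes and without replicate 1 of Nrl-/- photoreceptors. The 1 element of this list that was more open in rods lay 11649 bp upstream of Opn1mw, the medium-wavelength opsin, with 2.44 and 2.21 CPM in Nrl-/- photoreceptors against 12.5 and 11.1 CPM in rods. DESeq2 did not call it.

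The RNA of these genes was compared as well. Of 12327 genes tested in the RNA-seq libraries against a 2-fold change at an adjusted p under 0.05, 13.3% were higher in Nrl-/- photoreceptors and 6.88% in rods. Of the cone phototransduction genes all 11 were higher in Nrl-/- photoreceptors, with a median log2 fold change of 7.06. Of the 21 genes of the rod phototransduction list, 13 were higher in rods and none in Nrl-/- photoreceptors, with a median of -1.91. Slc24a2 RNA averaged 160.4 ± 27.7 CPM in Nrl-/- photoreceptors, against 1.19 ± 0.0497 CPM in rods (SD, n = 3 each).

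The elements of the rod transcription factors were more often open in rods, and those of the cone factors more often in Nrl-/- photoreceptors. Over Nrl, Nr2e3, Esrrb, Mef2c, Rorb, Samd7 and Casz1, 24 of 67 elements were more open in rods and 7 in Nrl-/- photoreceptors, with a median log2 fold change of -0.85. Of the 24, 11 lay at Esrrb and 7 at Casz1. Rorb had 4 of 12 elements and Samd7 1 of 4 more open in Nrl-/- photoreceptors, and neither had one more open in rods. The RNA of both was nonetheless higher in rods. Mef2c had 2 elements in each direction. Over Thrb, Rxrg, Sall3, Sall1, Six6 and Isl2, 26 of 58 were more open in Nrl-/- photoreceptors and 4 in rods, and the median of 0.76 came to -0.01 with processed reads as library sizes and to 2.83 without chromosome 14, where Thrb supplies 29 of the 58. Over Crx, Otx2, Rax, Neurod1, Mef2d, Prdm1 and Rora, which both cell types use, 22 of 81 were more open in Nrl-/- photoreceptors, 13 of them at Rora, and 4 in rods, close to the 21.0% and 6.38% over all elements. The median of -0.06 turned to 0.12 with TMM over promoters alone.

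The single element of Nr2e3, at its promoter, had 2.44 and 5.74 CPM in Nrl-/- photoreceptors, against 74.4 and 71.5 CPM in rods, a log2 fold change of -4.00 (SE 0.23, edgeR adjusted p = 3.5e-13). NR2E3 represses cone genes in rods. Nrl itself had 4 tested elements. The promoter of its upstream start had 123 and 91.0 CPM in Nrl-/- photoreceptors, against 238 and 244 CPM in rods. That of its other start had 29.2 and 19.2 CPM against 80.8 and 98.4 CPM, so that both had a clear signal in either group. The reporter of both groups also carries an Nrl promoter. Reads from the reporter and from the Nrl gene itself cannot be told apart in these promoter counts. The Nrl intron element shown above had no count in either Nrl-/- library, against 96.9 and 103 CPM in rods, at least 106-fold lower with the floor of 3 counts per library. Which bases the null allele lacks is not given in the sources used here, so a closed element and missing DNA cannot be told apart there.

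Esrrb, a nuclear receptor of the oestrogen-related kind that rods express, had the most elements more open in rods of any gene, 11 of 16 tested. Its intron element shown above, 86256 bp from the start, had 19.5 and 16.8 CPM in Nrl-/- photoreceptors, against 103 and 110.3 CPM in rods, a log2 fold change of -2.58 (SE 0.15, edgeR adjusted p = 4.6e-11). Others in the same introns did not pass the test. One 32248 bp from the start had 69.0 and 69.3 CPM in Nrl-/- photoreceptors, against 90.9 and 95.9 CPM in rods, so that rods were somewhat higher, and one at 61840 bp had 15.8 and 15.2 CPM against 11.1 and 15.6 CPM, where the groups overlapped. The letters TCAAGGTCA, to which receptors of this kind bind, are described with the other motifs.

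Casz1, a zinc finger factor of photoreceptors, had 7 of 22 elements more open in rods and none in Nrl-/- photoreceptors. Crx had 3 of 4 elements in that direction. The element 3285 bp upstream of a Crx start had 6.50 and 5.74 CPM in Nrl-/- photoreceptors, against 26.4 and 26.6 CPM in rods (log2 fold change -2.13, SE 0.28), and the call at the Crx promoter was lost under 8 of the alternatives. No element of Neurod1 or Rax was called, with 4 and 8 tested.

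Rxrg, the retinoid receptor that cones use, was more open in Nrl-/- photoreceptors at all 8 of its elements. The one shown above, 14245 bp upstream, had 34.1 and 21.9 CPM in Nrl-/- photoreceptors, against 0.403 and 0.364 CPM in rods, a log2 fold change of 6.06 (SE 0.49). Those 50812 and 43753 bp upstream had no count in rods. The promoter of Six6, a homeodomain factor of the eye field, had 72.3 and 59.4 CPM in Nrl-/- photoreceptors, against 2.82 and 5.64 CPM in rods, a log2 fold change of 3.92 (SE 0.24). The promoter of Isl2, a LIM homeodomain factor, had 53.6 and 47.7 CPM in Nrl-/- photoreceptors, against 6.85 and 7.28 CPM in rods. Of the 6 Isl2 elements, 4 were more open in Nrl-/- photoreceptors and 1 in rods. The latter, 5220 bp from the start, had 1.62 and 0.883 CPM in Nrl-/- photoreceptors, against 16.1 and 18.9 CPM in rods.

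Thrb, the thyroid hormone receptor that directs the medium-wavelength cone fate, was split. Of its 29 elements 4 were more open in Nrl-/- photoreceptors and 3 in rods. The 4 lay in introns, and the one with the highest signal had 34.5 and 32.0 CPM in Nrl-/- photoreceptors, against 5.64 and 8.73 CPM in rods. Of the 3, the one 3298 bp upstream of a start had 12.6 and 18.6 CPM in Nrl-/- photoreceptors, against 50.2 and 48.0 CPM in rods. The promoter with the highest signal had 87.7 and 72.9 CPM in Nrl-/- photoreceptors, against 103 and 93.9 CPM in rods, and did not pass the test. Genes split in this way were few. Of 16441 genes nearest to a tested element, 5038 had an element more open in Nrl-/- photoreceptors, 2227 had one more open in rods, and 424 had both.

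At several genes the start sites of a single gene went apart. Mef2c encodes a MADS-box factor whose RNA averaged 31.5 ± 3.42 CPM in Nrl-/- photoreceptors, against 698 ± 44.6 CPM in rods (SD, n = 3 each, log2 fold change -4.47, SE 0.14). One of its promoters had 10.2 and 11.9 CPM in Nrl-/- photoreceptors, against 53.6 and 56.0 CPM in rods, a log2 fold change of -2.28 (SE 0.20). Another start had 9.34 and 10.2 CPM in Nrl-/- photoreceptors, against 0.806 and 1.09 CPM in rods, a log2 fold change of 3.32 (SE 0.56, edgeR adjusted p = 0.00018). The first of these promoters followed the RNA and the other went against it.

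Rora, a receptor-type factor of photoreceptors, had 24 tested elements, of which 13 were more open in Nrl-/- photoreceptors and none in rods. A promoter with a high signal had 87.7 and 79.3 CPM in Nrl-/- photoreceptors, against 86.7 and 89.7 CPM in rods, and the groups overlapped. Around another start, the promoter had 6.90 and 5.52 CPM in Nrl-/- photoreceptors, against 0.403 and 0 CPM in rods, and an element 3293 bp downstream had 8.12 and 11.9 CPM against 0 and 0.364 CPM. Syne1, which links the nuclear envelope to the cytoskeleton, had 4 of 6 elements more open in rods and 1 in Nrl-/- photoreceptors. Its promoter 44 bp from one start had 2.44 and 1.99 CPM in Nrl-/- photoreceptors, against 13.9 and 17.1 CPM in rods, while the one 158 bp from another start had 5.69 and 7.51 CPM against 0.403 and 1.09 CPM. The call at the second was lost without replicate 2 of Nrl-/- photoreceptors.

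The outer segment list, which both cell types need to build their discs, had 83 tested elements. Of these 16 were more open in rods and none in Nrl-/- photoreceptors, against 6.38% and 21.0% over all elements, and the median was -0.79. Prph2, a rim protein of the discs, had 6 of 11 elements more open in rods. The one shown above, 17681 bp from the start, had 11.0 and 19.9 CPM in Nrl-/- photoreceptors, against 79.4 and 75.1 CPM in rods, a log2 fold change of -2.23 (SE 0.18). The Prph2 promoter had 50.8 and 42.4 CPM in Nrl-/- photoreceptors, against 99.4 and 102 CPM in rods, and was not called (log2 fold change -1.14, SE 0.13). None of the 12 elements of Abca4, the retinoid transporter, or the 9 of Prom1, a disc membrane protein, was called.

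The synapse list was mixed. Of 144 elements 13 were more open in Nrl-/- photoreceptors and 22 in rods, against 21.0% and 6.38% over all elements. The median was -0.26. Cplx3, a complexin of ribbon synapses, had an element 6884 bp from its start with 16.7 and 20.1 CPM in Nrl-/- photoreceptors, against 1.01 and 0.910 CPM in rods, a log2 fold change of 4.24 (SE 0.45). The promoter of Egflam, which encodes pikachurin of the photoreceptor synapse, had 27.2 and 23.6 CPM in Nrl-/- photoreceptors, against 78.0 and 75.3 CPM in rods, while its RNA did not pass the test, with 641 ± 7.90 CPM in Nrl-/- photoreceptors and 298 ± 45.8 CPM in rods (SD, n = 3 each).

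**Figure D2:**
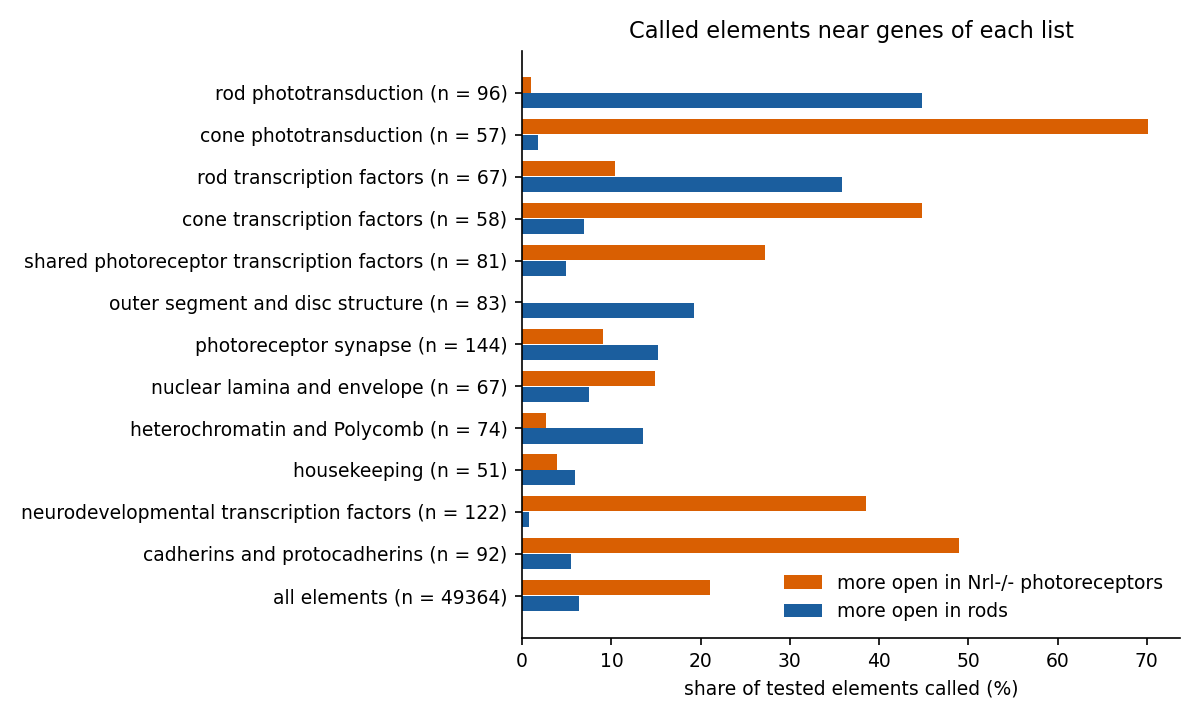
Share of tested elements called more open in Nrl-/- photoreceptors (upper bar of each pair) and in rods (lower bar), in percent, for elements nearest to the genes of 12 lists and for all elements, with the number tested in brackets. Calls were 1 and 43 of 96 elements for rod phototransduction, 40 and 1 of 57 for cone phototransduction, and 47 and 1 of 122 for neurodevelopmental transcription factors.

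The nuclear lamina and envelope list, of interest for the rod nucleus, had 10 of 67 elements more open in Nrl-/- photoreceptors and 5 in rods, against 21.0% and 6.38% over all elements. Its median of -0.08 turned to 0.10 with TMM over promoters alone. At Lmna, which encodes lamin A and C, the promoter had 19.5 and 19.0 CPM in Nrl-/- photoreceptors, against 0.806 and 1.82 CPM in rods, a log2 fold change of 3.82 (SE 0.43, edgeR adjusted p = 3.1e-07). The element 6729 bp upstream, shown above, had 35.3 and 37.5 CPM in Nrl-/- photoreceptors, against 1.21 and 1.82 CPM in rods, a log2 fold change of 4.55 (SE 0.33). The promoter of Lbr, the lamin B receptor, had 149 and 129 CPM in Nrl-/- photoreceptors, against 144 and 148 CPM in rods, so that the groups overlapped. Of the 4 Lbr elements tested, 1 was more open in Nrl-/- photoreceptors and 0 in rods.

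Genes of heterochromatin and Polycomb had 2 of 74 elements more open in Nrl-/- photoreceptors and 10 in rods, against 21.0% and 6.38% over all elements. The median was -0.58. Of the 10, 4 lay at Dnmt3a, a de novo DNA methyltransferase. Its element in an intron 6666 bp from a start had 2.03 and 3.09 CPM in Nrl-/- photoreceptors, against 26.0 and 29.7 CPM in rods. The Dnmt3a RNA averaged 145 ± 34.6 CPM in Nrl-/- photoreceptors, against 243 ± 12.9 CPM in rods (SD, n = 3 each) and did not pass the test. At Cbx5, which encodes the heterochromatin protein HP1α, a minor promoter had 4.87 and 3.53 CPM in Nrl-/- photoreceptors and no count in rods, at least 7.31-fold higher in Nrl-/- photoreceptors. Housekeeping genes had 2 of 51 elements more open in Nrl-/- photoreceptors and 3 in rods, against the same 21.0% and 6.38%.

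Genes of neuronal development and adhesion were counted next, against the 21.0% and 6.38% over all elements. Most of their elements were distal, and over all distal elements these shares were 25.9% and 7.74%. Of 122 elements at neurodevelopmental transcription factors, 47 were more open in Nrl-/- photoreceptors and 1 in rods, with a median of 1.00, and 22 of the 34 genes with an element had one of the 47. Both elements of Sox2, 4 of 5 of Onecut1 and all 3 of Onecut2 were among them. Sox2 acts in neural progenitors, and the onecut factors in horizontal and ganglion cells. Without replicate 2 of Nrl-/- photoreceptors 30 of the elements of this list were called in that direction, and with DESeq2 25. Cadherins and protocadherins, which are adhesion proteins of neurons, had 45 of 92 more open in Nrl-/- photoreceptors and 5 in rods, with a median of 1.67. All 23 elements of Cdh13 and all 6 of Cdh20 were among the 45, and all 5 in rods came from Pcdh15, with 4, and Cdh4, with 1. Pcdh15 has a role in photoreceptors and hair cells.

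Other cell types could be in a sort, so their marker genes were counted as well. Most elements of their lists were distal, with 41 of 44 for bipolar cells and 22 of 26 for Müller glia. Of all distal elements tested, 25.9% were more open in Nrl-/- photoreceptors and 7.74% in rods. Elements more open in Nrl-/- photoreceptors numbered 18 of 44 for bipolar cells, 13 of 33 for amacrine cells, 2 of 7 for horizontal cells, 6 of 15 for ganglion cells, 8 of 26 for Müller glia, 5 of 11 for microglia, 3 of 6 for endothelial cells and 7 of 13 for the pigment epithelium, where 21.0% of all elements were. Single genes carried much of these counts, since 12 of the 18 bipolar elements lay at Lrtm1 and 8 of the 13 amacrine elements at Npy, while Prkca had all 4 bipolar elements more open in rods and none in Nrl-/- photoreceptors. Elements more open in rods numbered 4 for bipolar, 1 for amacrine and 1 for ganglion cell markers and 0 for the other lists. Medians of the bipolar and amacrine lists, 0.45 and 0.46, turned to -0.22 and -0.02 with processed reads as library sizes, and that of the bipolar list came to -0.23 without chromosome 14. Summed over a list, the elements of bipolar markers had 534.1 and 618.8 CPM in Nrl-/- photoreceptors, against 466.7 and 489.3 CPM in rods, and those of microglia markers 188.5 and 187.1 CPM against 143.1 and 158.3 CPM.

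The RNA of the same markers was summed too. Bipolar markers came to between 1543 and 1704 CPM in Nrl-/- photoreceptors, against between 86.9 and 119 CPM in rods, with 3 of 9 tested genes higher in Nrl-/- photoreceptors and 1 in rods. Microglia markers came to between 36.4 and 78.3 CPM in Nrl-/- photoreceptors, against between 4.45 and 8.68 CPM in rods, with 8 of 10 higher in Nrl-/- photoreceptors. Müller glia markers came to between 736 and 896 CPM in Nrl-/- photoreceptors, against between 116 and 189 CPM in rods, but only 2 of 12 genes were higher in Nrl-/- photoreceptors and the median log2 fold change over the list was -0.02. Amacrine, endothelial and pigment epithelium markers had lower sums in Nrl-/- photoreceptors, and neither amacrine nor ganglion cell markers had a gene that passed the test. No element was found for Csf1r, Itgam, P2ry12 and Tmem119 of the microglia list or for Gpr179, Pcp2 and Vsx1 of the bipolar list. The part of these cells in the differences between the groups was not tested.

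The distance from a gene start separated the called elements. Of 13865 promoters, 8.65% were more open in Nrl-/- photoreceptors and 2.91% in rods, and of 35499 distal elements 25.9% and 7.74%. The medians of the log2 fold change were -0.19 for promoters and 0.29 for distal elements, and came to -0.73 and -0.32 with processed reads as library sizes. Distal elements made up 88.4% of those more open in Nrl-/- photoreceptors and 87.2% of those more open in rods, against 71.9% of all tested. The median distance to the nearest start was 28373 bp for elements more open in Nrl-/- photoreceptors, 12412 bp for those more open in rods and 2767 bp for those not called.

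The share more open in Nrl-/- photoreceptors grew with distance. It was 8.58% within 100 bp of a start, 19.4% at 5 to 20 kb, 36.9% at 50 to 100 kb, 53.2% at 100 to 500 kb and 79.0% of the 119 elements beyond 500 kb. The share more open in rods peaked at 9.89% between 5 and 20 kb and was 4.92% at 100 to 500 kb. In elements over 100 kb from a start lay 4.59% and 5.02% of the counts of the Nrl-/- libraries, against 2.61% and 2.71% of those of rods. Promoters took 54.8% and 52.8% of counts in Nrl-/- photoreceptors, against 58.6% and 57.3% in rods. These shares do not depend on the scaling between libraries.

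**Figure D3:**
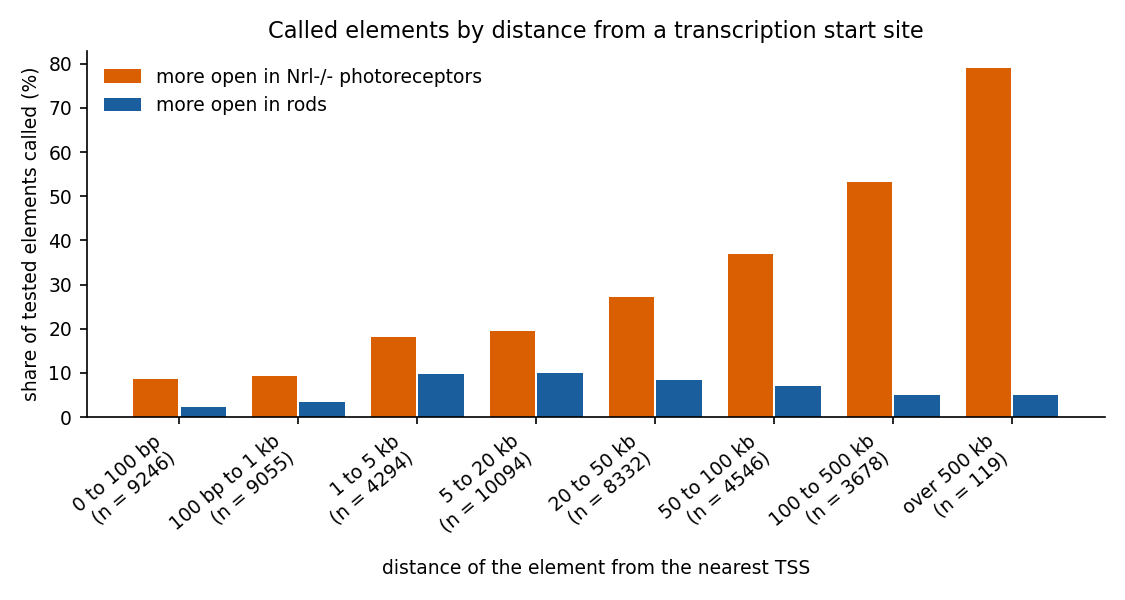
Share of tested elements called more open in Nrl-/- photoreceptors (left bar of each pair) and in rods (right bar), in percent, by distance of the element from the nearest transcription start site (TSS), with the number tested in brackets. The share for Nrl-/- photoreceptors was 8.58% within 100 bp and 79.0% beyond 500 kb, and that for rods had its highest value, 9.89%, at 5 to 20 kb.

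Intergenic elements were more open in Nrl-/- photoreceptors in 32.4% of cases and in rods in 6.47%, and intronic elements outside promoters in 23.0% and 9.05%. Elements with over 50% of their bases in repeats were the exception, since 12.8% of these 1218 were more open in Nrl-/- photoreceptors and 19.0% in rods. Base composition moved with the calls in distal elements, as 35.8% of those with 35 to 45% GC were more open in Nrl-/- photoreceptors, against 10.9% of those with 65% GC or more, and its part in the result was not tested. On the X chromosome 9.52% of 861 elements were more open in Nrl-/- photoreceptors and 7.32% in rods.

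Elements without any count in a group were unequal in number. Among the called elements, 1008 had no count in either rod library, and 39 had none in either Nrl-/- library. These were 9.71% and 1.24% of the elements called in their direction. An element at 0 in a group passed the filter through the other group alone, so a place in that group's peak list was likely from the start. Of the 1008, 956 were distal and 756 lay in the authors' Nrl-/- list. All 39 were distal and lay in the authors' peak list of rods. The highest of the 39 after the Nrl intron lay in an intron of Racgap1. It had 0 CPM in both Nrl-/- libraries against 51.8 and 62.0 CPM in rods, at least 60.5-fold lower. An intron of Aggf1, which encodes an angiogenic factor, had 0 against 24.8 and 22.9 CPM, and its RNA averaged 19.7 ± 1.29 CPM in Nrl-/- photoreceptors, against 219 ± 15.2 CPM in rods (SD, n = 3 each). Among the 1008, the Plaat1 element shown above had 81.2 and 82.4 CPM in Nrl-/- photoreceptors and none in rods, at least 142-fold higher. Plaat1 RNA, listed under its older symbol Hrasls, averaged 107 ± 9.49 CPM in Nrl-/- photoreceptors, against 0.885 ± 0.402 CPM in rods (SD, n = 3 each).

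Some elements with a large difference towards Nrl-/- photoreceptors lay far from any gene start. The Gm31447 element shown above, 526927 bp from that start, had 111 and 110.0 CPM in Nrl-/- photoreceptors, against 0.806 and 1.46 CPM in rods, a log2 fold change of 6.56 (SE 0.24). One 119531 bp upstream of Mpp6 had 80.0 and 89.0 CPM in Nrl-/- photoreceptors, against 1.61 and 0.364 CPM in rods. Sall1, a zinc finger factor, had an element 523361 bp upstream with 23.2 and 20.1 CPM in Nrl-/- photoreceptors, against 0.605 and 0.364 CPM in rods.

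Called elements lay beside others called alike. Where the next element lay within 1 kb, it was called alike for 69.4% of elements more open in Nrl-/- photoreceptors, against 10.3% over all elements at that spacing, and for 35.4% of elements more open in rods, against 4.76%. At 100 kb to 1 Mb these shares were 66.6% against 46.1%, and 14.5% against 3.84%. Neighbours of an element more open in rods were called the opposite way in 0.577% of cases within 1 kb and in 17.9% at 100 kb to 1 Mb. By nearest gene, 419 genes had at least 5 elements more open in Nrl-/- photoreceptors and none in rods, and 29 had at least 5 more open in rods and none in Nrl-/- photoreceptors.

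The most elements more open in Nrl-/- photoreceptors lay at Zfp608, a zinc finger gene, with 37 of 38. The next were Ptprg, a receptor tyrosine phosphatase, with 26 of 26, Cdh13 and the noncoding gene Gm27239 with 23 of 23 each, Setbp1, which encodes a SET-binding protein, with 21 of 22, Diras2, a small GTPase, with 19 of 19, and Kcnma1, a calcium-activated potassium channel, with 19 of 19. The RNA of these genes was higher in Nrl-/- photoreceptors, except that of Gm27239, which was not tested. After Esrrb with 11 of 16, the most elements more open in rods lay at Gnaz, a G protein α subunit, with 8 of 17, and at the noncoding gene 4930505M18Rik with 8 of 16. Gnaz RNA did not pass the test.

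To show whether differences held over domains, counts were summed in windows of 1 Mb. Of 2137 windows tested, 402 or 18.8% were more open in Nrl-/- photoreceptors and 27 or 1.26% in rods. Called windows held few elements in either direction, with a median of 6 elements in those more open in Nrl-/- photoreceptors and of 6 in those more open in rods, against 20 over all windows. In windows with 1 to 5 elements 48.3% were more open in Nrl-/- photoreceptors and 2.72% in rods, and in windows with more than 30 elements 2.63% and 0.415%. Of the called windows, 195 of the 402 and 11 of the 27 held at most 5 elements, which says little about a domain. Of the tested elements in windows more open in Nrl-/- photoreceptors, 81.9% were called that way and 0.154% the other way. A window sums the counts of these same elements, so this share is not separate support. The window from 55 to 56 Mb of chromosome 18, next to Zfp608 and Gramd3, had 454 and 494 CPM in Nrl-/- photoreceptors, against 7.05 and 6.37 CPM in rods, and all 34 of its tested elements were called (log2 fold change 6.14, SE 0.14). A window on chromosome 14 nearest to Kcnma1 had 322 and 328 CPM in Nrl-/- photoreceptors, against 7.66 and 8.92 CPM in rods, with all 29 called.

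**Figure D4:**
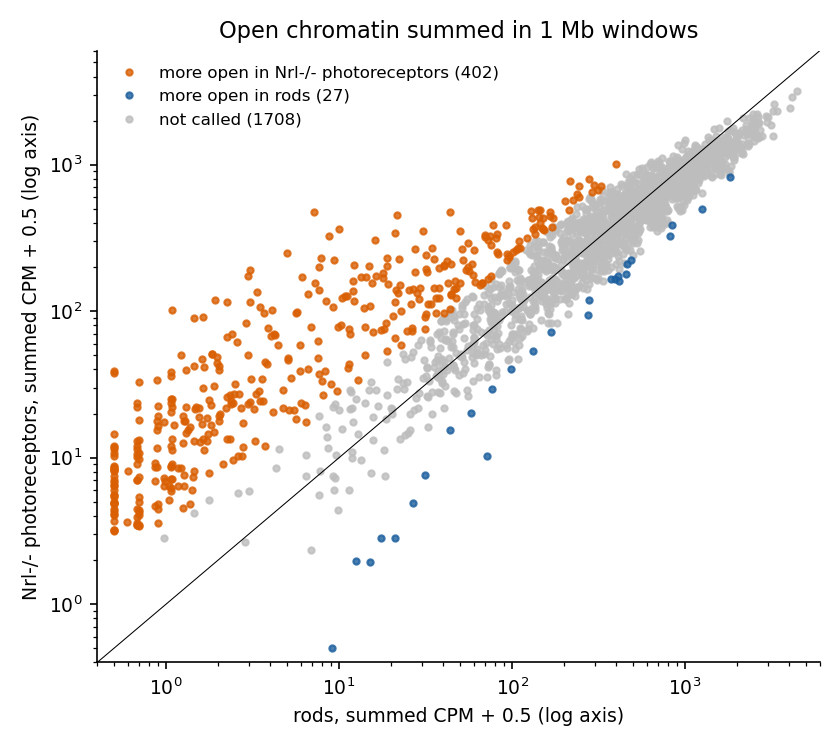
Counts of elements summed in each of 2137 windows of 1 Mb, with the mean of Nrl-/- photoreceptors on the vertical axis and that of rods on the horizontal axis, as CPM + 0.5 on log axes, and a line of equal values. The 402 windows more open in Nrl-/- photoreceptors lie above the line, many of them where rods were low, and the 27 more open in rods lie below it.

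Windows more open in rods were less uniform. The one with the lowest p, from 144 to 145 Mb of chromosome 4, held 3 elements nearest to Dhrs3, a retinal reductase, all more open in rods (log2 fold change of the window -2.83, SE 0.23). The next, from 3 to 4 Mb of chromosome 11 with 50 tested elements, had 536 and 462 CPM in Nrl-/- photoreceptors, against 1252 and 1239 CPM in rods, a log2 fold change of -1.33 (SE 0.06). The window of Crx on chromosome 7, from 15 to 16 Mb, had 249 and 172 CPM in Nrl-/- photoreceptors, against 469.8 and 447 CPM in rods (log2 fold change -1.15, SE 0.08, edgeR adjusted p = 0.038).

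The letters of 18 motifs were searched on both strands of all elements, and their shares among distal elements are given as a description, beside those of elements not called. The extended nuclear receptor site TCAAGGTCA, which contains AGGTCA, was in 0.425% of distal elements more open in Nrl-/- photoreceptors, 3.93% of those more open in rods and 0.581% of those not called. AGGTCA itself was in 17.2%, 30.4% and 15.4% of these classes. Of the 284 distal elements with TCAAGGTCA, 13.7% were more open in Nrl-/- photoreceptors and 38.0% in rods. The MAF core TGCTGAC, the kind of site that NRL binds, was in 4.50%, 6.95% and 4.17%, and a longer MAF site, TGCTGA and CAGCA spaced by 2 bases, which can contain it, in 0.0327%, 0.218% and 0.0551%. Homeodomain sites of the CRX kind were somewhat more frequent in both called classes, with CTAATCC in 11.0%, 13.5% and 8.60% and CTAAGCC in 7.07%, 9.14% and 6.11%.

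Other letters differed in either direction. TAATTA was in 10.3% of distal elements more open in Nrl-/- photoreceptors, 4.11% of those more open in rods and 4.64% of those not called. Of the 6522 distal elements with CAGATG, an E-box of the NEUROD kind, 31.6% were more open in Nrl-/- photoreceptors and 6.30% in rods, against 25.9% and 7.74% over all distal elements. TGANTCA was in 9.13%, 6.33% and 5.76%, and another E-box, CATATG, in 4.06%, 3.39% and 2.68%. CTCF letters were rare in both called classes, with 2.90%, 1.09% and 5.97%, as were the GC box GGGCGGG, with 5.05%, 4.99% and 10.7%, and the ETS site CCGGAAG, with 1.47%, 1.20% and 2.69%. Paired homeodomain sites, which can share bases with the single ones, came to 2.16%, 1.57% and 1.20% for TAAT and ATTA spaced by 3 bases and to 3.39%, 4.59% and 2.47% for TAAT and CTTA spaced alike. Of 9243 distal elements with GATAA, 30.8% were more open in Nrl-/- photoreceptors and 9.79% in rods, both above the 25.9% and 7.74% over all distal elements, and GATAA was in 32.9% of those more open in rods and 23.3% of those not called. CTATTTTTA of the MEF2 kind was in 0.861%, 0.837% and 0.645%, and a repeat of AGGTCA spaced by 4 bases in 11 distal elements in all.

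GC content differs between classes, with medians of 49.0%, 49.5% and 52.0%, so the shares were also counted in the 18097 distal elements with 45 to 55% GC. There TCAAGGTCA was in 0.325%, 4.01% and 0.739%, TAATTA in 8.44%, 3.48% and 4.45%, CAGATG in 23.6%, 16.3% and 20.5%, TGANTCA in 9.84%, 6.53% and 6.73%, and CTCF letters in 3.53%, 1.20% and 7.57%. GGGCGGG was in 2.33%, 2.70% and 3.05% there, closer to each other than over all distal elements. CATATG was in 3.91%, 2.64% and 3.13%, so that elements more open in rods fell below those not called. The shares were 30.2%, 32.5% and 27.4% for GATAA and 11.7%, 13.6% and 10.4% for CTAATCC. A match is a run of letters and not a bound site.

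**Figure D5:**
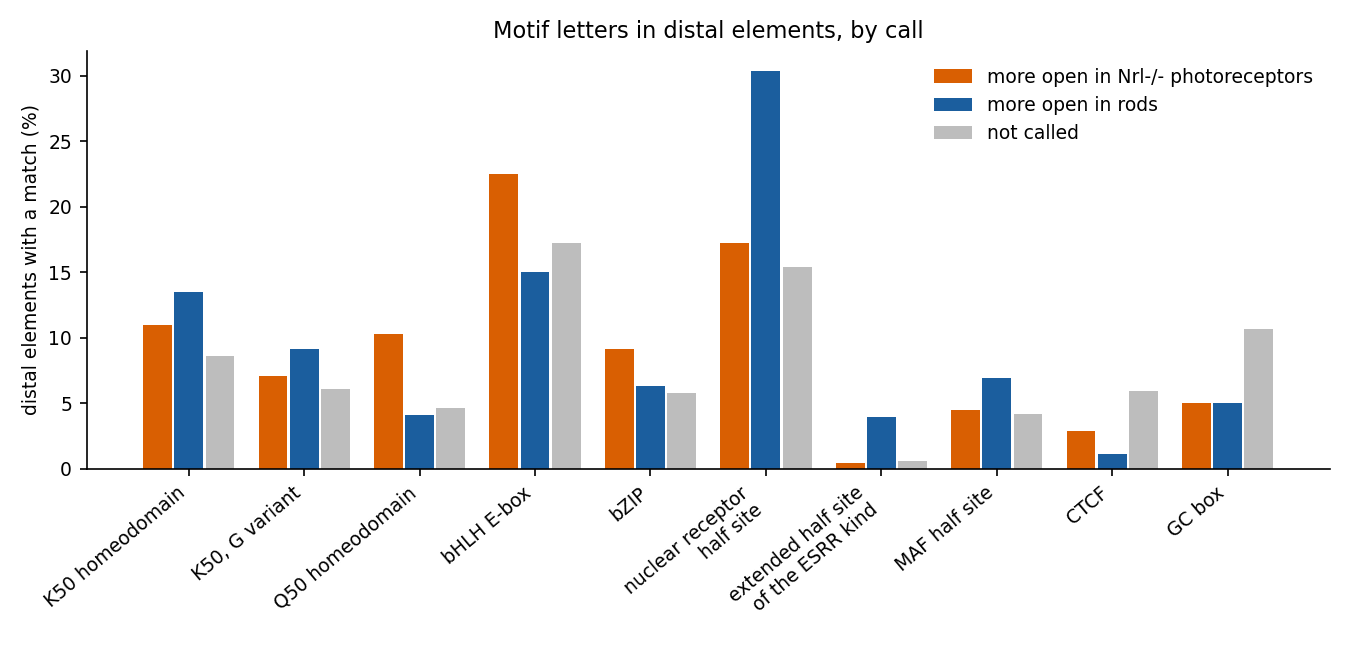
Share of distal elements that hold the letters of 10 motifs on either strand, in percent, for elements more open in Nrl-/- photoreceptors (left bar), more open in rods (middle bar) and not called (right bar). The AGGTCA core, named nuclear receptor on the axis, was in 17.2%, 30.4% and 15.4% of the 3 classes, and the TAATTA site named Q50 homeodomain in 10.3%, 4.11% and 4.64%.

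The RNA of the nearest gene came from other libraries and was not used to choose elements. Of 1200 promoter elements more open in Nrl-/- photoreceptors, 769 had a nearest gene tested for RNA, against 358 of 404 in rods and 11109 of 12261 not called. A gene without RNA in rods was tested only if it had enough in Nrl-/- photoreceptors, which can raise the next share. Of 671 tested genes with a promoter element more open in Nrl-/- photoreceptors, 69.4% had more RNA in Nrl-/- photoreceptors and 2.09% in rods. These shares were 13.3% and 6.88% over all genes tested, and 8.07% and 6.11% where the promoter was not called. Of 329 genes with a promoter element more open in rods, 4.56% had more RNA in Nrl-/- photoreceptors and 28.3% in rods. For distal elements within 20 kb these shares were 45.3% and 2.97% where the element was more open in Nrl-/- photoreceptors and 4.67% and 24.1% where it was more open in rods. Beyond 20 kb they were 29.2% and 6.44%, and 8.72% and 22.5%. Next to distal elements over 20 kb away that were not called, 14.6% of genes had more RNA in Nrl-/- photoreceptors and 10.2% in rods. A gene can be counted in more than 1 class.

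The authors' peak lists, a single list of reproducible peaks for each cell type, came from the same libraries. An overlap of called elements with the list of their own group is thus not separate support. Of all 49364 elements tested, 29045 overlapped both lists, 13644 the Nrl-/- list only, 2959 the rod list only and 3716 neither. Of the elements more open in Nrl-/- photoreceptors, 87.6% overlapped a peak of the Nrl-/- list and 8.89% one of the rod list. Of those more open in rods, 49.5% overlapped a peak of the Nrl-/- list and 98.3% one of the rod list. With only peaks of a −log10 q of at least 36, chosen after the data were seen, the shares in the Nrl-/- list were 51.9% and 32.5%. Those in the rod list were as before, so the Nrl-/- list held weaker peaks at called elements than the rod list. The counts per list above are thus not at an equal cut-off.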

How the data were processed

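ATAC-seq and RNA-seq libraries were sequenced by the authors from sorted photoreceptors. For ATAC-seq, the authors aligned read pairs to GRCm38 with Bowtie2 2.2.3, removed duplicates with Picard 1.121, kept inserts of up to 100 bp, called reproducible peaks per cell type with MACS2 2.1.0 and an irreproducible discovery rate, and deposited raw counts per 200 bp element (bedtools 2.24.0) and peak lists with −log10 q values. The deposited RNA counts per gene came from STAR 2.4.2a and HTSeq 0.6.1p1, and reads without a gene, from 41.27% to 49.16% of a library, were left out. From 91.77% to 93.14% of counts between 1 and 4 were even, so a fragment mostly adds 2 counts to an element, and alternatives with counts halved and thinned to the smallest total were run.

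Here low counts were filtered with filterByExpr, libraries were scaled by TMM, and a quasi-likelihood model was fitted in edgeR 4.0.16 (R 4.3.3) over all elements, tested against a 2-fold change (glmTreat) with Benjamini-Hochberg adjustment at 0.1 for elements and windows and 0.05 for RNA. Promoters were elements with their midpoint from 1000 bp upstream to 100 bp downstream of a RefSeq start, and others were distal. Distances and motif letters were taken from GRCm38 with Python 3.11.15. A bound against a group at 0 uses a floor of 3 counts per library, which is 0.941 CPM for Nrl-/- photoreceptors and 0.575 CPM for rods and covers counting error only.

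The gene lists and the elements named were chosen with earlier results of these data known. Named were all elements of Nrl, promoters and up to 3 elements per direction of the photoreceptor and nuclear lists, the 12 largest changes with a mean of at least 10 CPM, the 6 lowest p per direction, and 5 high elements with an absolute log2 fold change under 0.25. A few named items are not reported here. Other elements in the text were chosen after their values were seen. Gene names were matched to RNA by symbol for 14832 genes and by synonym for 648.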

Additional observations from a re-analysis of the deposited data

How the results depend on the processing

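Of 117 called elements named by the rule, 92 kept their direction and their side of the threshold under every alternative run, and none was reversed. The counts of called elements moved most with the test and the scaling. More open in Nrl-/- photoreceptors were 5972 elements with processed reads as library sizes, 16548 without the threshold on the fold change and 5982 with DESeq2, and more open in rods were 13578 without that threshold and 1307 with DESeq2. DESeq2 shared 5864 and 1306 elements with edgeR. Leaving out a library gave 6631 to 10220 elements in Nrl-/- photoreceptors, lowest without replicate 2 of that group, and 2648 to 3178 in rods. For windows, 258 were more open in Nrl-/- photoreceptors with processed reads and 965 without the threshold, and in rods 16 with TMM over promoters alone, 799 without the threshold and 15 with DESeq2. Leaving out a library gave 349 to 402 and 18 to 37 windows.

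Processed reads shifted all log2 fold changes by -0.576 and TMM over promoters by 0.174. Of all calls, 23.3% were more open in rods, against 40.3% with processed reads, 45.1% without the threshold and 17.1% with TMM over promoters. RNA counts stayed within 1.5 times in all alternatives, from 1509 to 1716 genes in Nrl-/- photoreceptors and from 741 to 1074 in rods on leaving out a library. Replicate numbers did not pair the libraries (r of deviations 0.027 for ATAC-seq and 0.172, 0.077 and 0.015 for RNA-seq), and with a replicate block 9654 and 3076 elements, 407 and 29 windows and 1642 and 873 genes were called. Leaving out chromosome 14, an alternative chosen after seeing the data, gave 9949 and 3015 elements. The cause of these shifts was not tested. With 2 libraries per group and a smallest total of 2402513 counts, weak elements are estimated poorly.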

Other observations

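A position on the chromosome that no comparison used was looked at after the values were seen. In the first 5 Mb of the chromosomes, 5.59% of 662 tested elements were more open in Nrl-/- photoreceptors and 20.2% in rods, with a median log2 fold change of -0.85. From 5 to 10 Mb 150 and 155 of 1291 elements were called in these directions, and the shares were 20.7% and 7.29% from 10 to 15 Mb and 21.5% and 6.01% beyond 15 Mb. Promoters and distal elements of the first 5 Mb had medians of -0.88 and -0.85. The elements more open in rods there were spread unevenly, with 48 of 111 on chromosome 11, 30 of 104 on chromosome 19 and 18 of 64 on chromosome 12, and none among those of chromosomes 4, 6, 9, 10, 13, 17, 18 and Y.

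At a few genes the promoter and the RNA went opposite ways. A Grip1 promoter, of a glutamate receptor scaffold, had 13.0 and 20.5 CPM in Nrl-/- photoreceptors, against 1.81 and 3.09 CPM in rods, while its RNA was lower in Nrl-/- photoreceptors. A promoter of Cbx7, a Polycomb protein, had 19.9 and 19.4 CPM in Nrl-/- photoreceptors, against 52.6 and 55.5 CPM in rods, while its RNA was higher in Nrl-/- photoreceptors.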
